A study of Mus musculus with 9 samples.

Results

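Wdfy1 and 6 genes around it were followed across the main olfactory epithelium of 9 mice. Wdfy1 was picked because its RNA was more abundant in mice lacking the Ms4a gene cluster than in wild-type mice. The other 6 were picked for their relation to it: its relatives Wdfy2 and Wdfy3, the receptor genes Tlr3 and Tlr4, the adaptor gene Ticam1 and the transcription factor gene Irf3. These 7 genes were found by symbol among the 55291 genes of the table, and all 7 were among the 23225 genes tested (at least 10 counts summed over the 9 mice). Because the level of Wdfy1 in the Ms4a cluster KO led to its choice, its differences between genotypes are described here with their intervals and without a p-value.

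WDFY1 carries WD repeats and a FYVE domain, a fold that binds phosphatidylinositol 3-phosphate, the lipid that marks early endosomes. It is reported to bring the adaptor TRIF, the product of Ticam1, to TLR3 and TLR4. TLR3 senses double-stranded RNA inside endosomes and TLR4 senses bacterial lipopolysaccharide, and TRIF passes both signals through kinases to IRF3, which turns on interferon genes, and to NF-kB. In the nose these receptors serve barrier epithelium and resident immune cells beside the olfactory sensory neurons.

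The study compared wild-type C57BL/6 mice, Ms4a6c KO mice (C57BL/6, Ms4a6c-/-) and Ms4a cluster KO mice (C57BL/6, Ms4a cluster-/-), with 3 mice of each genotype aged 8 to 12 weeks, to examine expression after the loss of these genes, which encode non-GPCR odorant receptors in the nose. The cluster was removed in the germline with CRISPR/Cas9, and Ms4a6c by homologous recombination in a separate line made by the KOMP consortium, and how many founders each line had is not given in the sources used here. The controls were wild-type littermates, the same 3 mice for both knockouts, and the sources used here do not say from which line they came. A difference between genotypes, that of Wdfy1 included, therefore cannot be told apart from other differences between the lines, such as background or litter. Directional poly-A libraries were made from whole dissected tissue, in which a smaller number of cells of a type and less RNA per cell cannot be told apart.

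The libraries held 13954591 to 21987174 expected counts, the read numbers that RSEM assigned to genes. Levels are given as CPM (each count relative to the TMM-scaled library size, on the usual CPM scale) and differences on the log2 scale, and a count of 3, the limit taken for a gene at 0, corresponded to 0.136 to 0.215 CPM before TMM scaling. Ms4a6c had 0, 2.35 and 2 expected counts in the Ms4a6c KO mice and 0 in every Ms4a cluster KO mouse, against 54.0, 90.3 and 81.5 in wild type, and the 21 Ms4a genes of the table summed to 0 in each Ms4a cluster KO mouse. Markers of mature olfactory sensory neurons, such as Omp, summed to 7997 to 10321 CPM in every library, and all 5 were detected in each genotype. Transcripts of nasal glands set 2 libraries apart. The secreted gland gene Bpifb9b took 10.4% of the counts in wild type replicate 1 and 10.2% in Ms4a cluster KO replicate 2, and 0.0264 to 3.28% elsewhere, so results are also given without these 2 mice, a choice made after the data were seen.

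Whether reads of Wdfy1 could be confused with those of its relatives was examined first. The coding sequences of Wdfy1 (1230 bases) and Wdfy2 (1200 bases) were 63.3% identical over their whole alignment, and their longest identical run was 20 bases. The stretch of 60 coding bases in which both were most alike, bases 829 to 888 of each coding sequence (positions counted from the start codon; GENCODE M21, GRCm38), still differed at 10 bases, shown here in capitals because they are what lets a read be assigned to one gene or the other.
Wdfy1: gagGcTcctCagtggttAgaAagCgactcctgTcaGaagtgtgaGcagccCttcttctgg
Wdfy2: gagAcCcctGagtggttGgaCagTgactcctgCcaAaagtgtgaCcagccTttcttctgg
In coding sequence, the longest run shared with Wdfy3 was 13 bases, and with Wdfy4, the remaining relative, also 13 bases. Of the 5669 windows of 50 bases in the Wdfy1 transcripts, 15 (0.265%) also occurred in transcripts of another gene. The genes that shared most of them, with Stat3 first (12 windows), were not WDFY genes. Shared windows were 104 of 9136 in Wdfy2, of which 88 lay in the microRNA gene Mir8098 that sits in one of its exons. Tlr4 had 1 shared window of 5551, and Wdfy3, Tlr3, Ticam1 and Irf3 had 0. Windows were compared in the sense direction only. Stretches in which exons overlap those of a gene on the opposite strand, given below, are therefore not in these counts.

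Wdfy1 (ENSMUSG00000073643.11) lies on the minus strand of chromosome 1 at 79702262 to 79776143 (GRCm38). Its exons overlap those of Mrpl44, on the opposite strand, by 126 bases. In wild-type mice Wdfy1 was at 39.8, 41.5 and 47.7 CPM, from 560, 748 and 839 expected counts. In Ms4a6c KO mice it was at 45.4, 47.3 and 48.0 CPM, from 1107, 763 and 753 counts. In Ms4a cluster KO mice it was at 121, 99.2 and 113 CPM, from 2415, 995 and 2253 counts. The lowest Ms4a cluster KO mouse was therefore above the highest of the other 6 mice, while the ranges of wild type and Ms4a6c KO overlapped.

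The mean level of Wdfy1 was 43.0 ± 4.17 CPM in wild type, 46.9 ± 1.35 CPM in Ms4a6c KO and 111 ± 11 CPM in Ms4a cluster KO (SD, n = 3 each). The Ms4a cluster KO was 2.58-fold higher than wild type, a log2 difference of 1.37 (SE 0.09, 95% interval 1.17 to 1.56). It was 2.37-fold higher than the Ms4a6c KO, a log2 difference of 1.25 (SE 0.09, 95% interval 1.05 to 1.44). The Ms4a6c KO differed from wild type by 0.12 on the log2 scale, with an interval of -0.07 to 0.32 that includes 0. Values of all 3 mice lay above wild type, as for Wdfy1, in 4.71% of all tested genes in the Ms4a cluster KO, and above the Ms4a6c KO in 7.86%. Nothing is read from these shares for a gene that was picked by this contrast. A log2 difference between Ms4a cluster KO and wild type at least as large as that of Wdfy1 was held by 657 of the 23225 tested genes, by 61 of the 16537 with a mean of at least 1 CPM and by 11 of the 10795 with a mean of at least 10 CPM, Wdfy1 included, which is a description only.

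**Figure D1:**
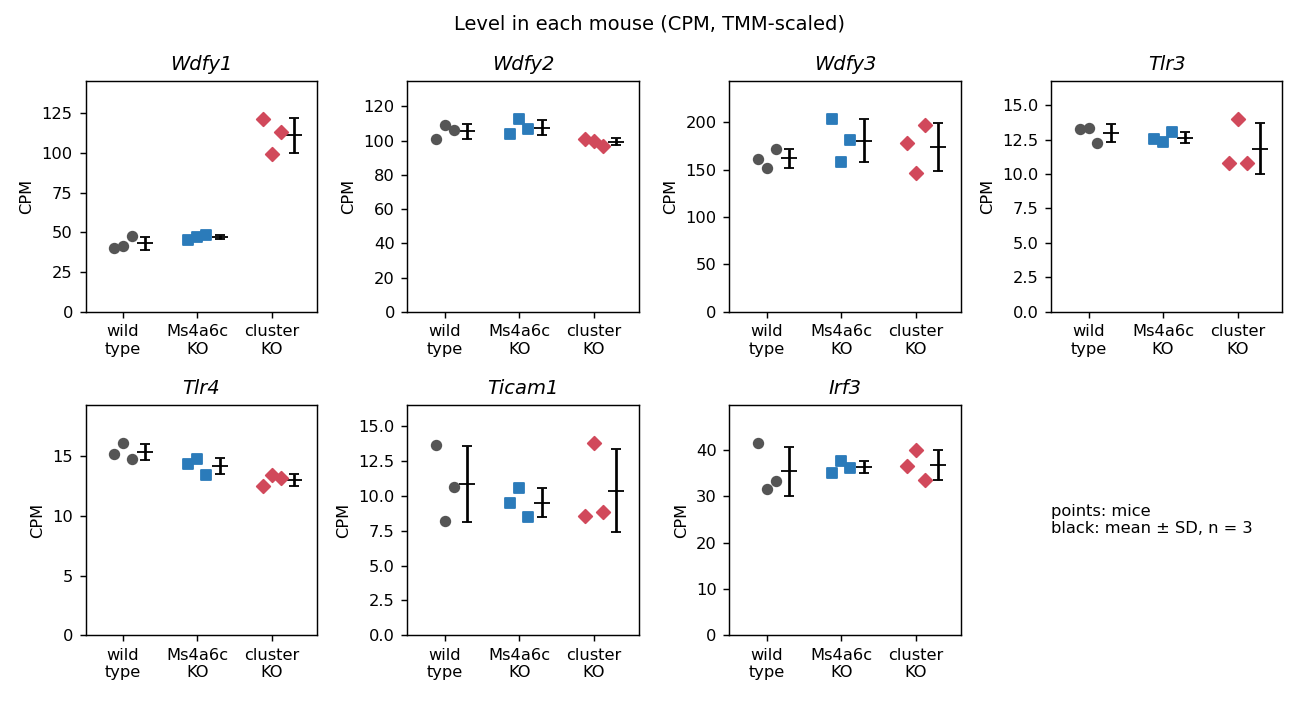
Level of each of the 7 genes in CPM (y axis, TMM-scaled, from 0) in each of the 9 mice, grouped by genotype on the x axis, with the mean ± SD of 3 mice in black. Wdfy1 sits between 99.2 and 121 CPM in the Ms4a cluster KO mice and between 39.8 and 48.0 CPM in the other 6, while the ranges of the other genes overlap, except for Tlr4 between Ms4a cluster KO and wild type and Wdfy2 between the knockouts.

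The 2 gland-rich mice had the lowest Wdfy1 level of their own genotype, 39.8 CPM in wild type replicate 1 and 99.2 CPM in Ms4a cluster KO replicate 2. Without them the difference between Ms4a cluster KO and wild type was 1.39 (SE 0.08) on the log2 scale, that between Ms4a cluster KO and Ms4a6c KO 1.32 (SE 0.07), and that between Ms4a6c KO and wild type 0.07 (SE 0.07). The ratio of Wdfy1 to Wdfy2 counts per kb of exon, which needs no scaling between libraries, was 0.559, 0.538 and 0.636 in wild type. It was 0.619, 0.596 and 0.636 in Ms4a6c KO and 1.70, 1.41 and 1.65 in Ms4a cluster KO. Wdfy1 was thus below Wdfy2 per kb in 6 of the 9 libraries and above it in the 3 of the Ms4a cluster KO, one of which was gland-rich.

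**Figure D2:**
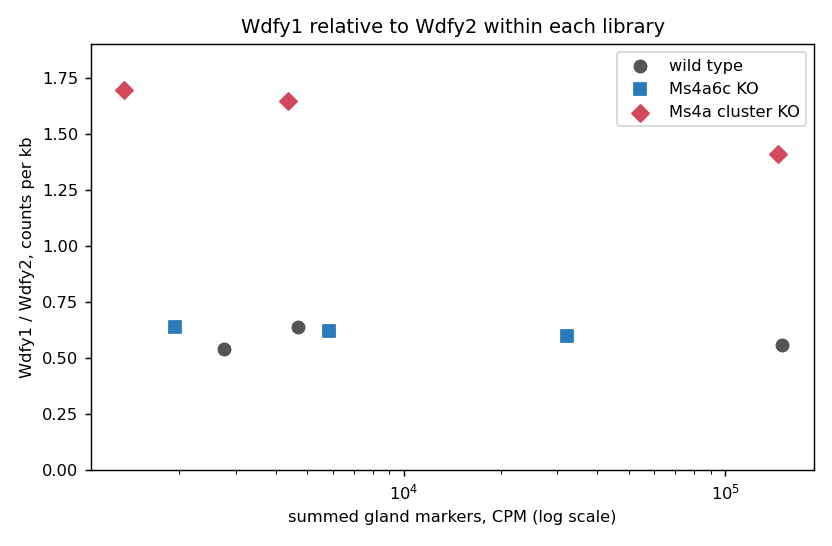
Ratio of Wdfy1 to Wdfy2 in counts per kb of exon (y axis) against the summed CPM of 4 gland markers (x axis, log scale), 1 point per mouse. The Ms4a cluster KO mice lie between 1.41 and 1.70, and the other 6 between 0.538 and 0.636, over gland marker sums of 1340 to 149721 CPM.

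In each of the other marker lists, the summed level in the Ms4a cluster KO overlapped that of at least 1 of the other genotypes. The 5 macrophage markers, such as Csf1r and C1qa, summed to 94.3 to 114 CPM in wild type, 82.6 to 88.9 CPM in Ms4a6c KO and 101 to 122 CPM in Ms4a cluster KO. The 3 dendritic cell markers summed to 1.78 to 2.56, 1.99 to 3.19 and 2.56 to 3.89 CPM in the same order. The 3 neutrophil markers, S100a8, S100a9 and Retnlg, reached 61.3 CPM in wild type, 140 CPM in Ms4a6c KO and 120 CPM in Ms4a cluster KO. The Ms4a6c KO stood apart from both other genotypes in 2 lists, being lowest in the macrophage sum and highest in the sum of 4 sustentacular cell markers, which was 6526 to 7044 CPM against 5553 to 5684 CPM in wild type and 5323 to 5869 CPM in Ms4a cluster KO. No marker of these lists was at 0 in any genotype, and their part in the level of Wdfy1 was not tested.

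Per kb of exon, the scale used to compare genes, Wdfy1 moved from the middle of the 7 genes to the top. The length was that of all annotated exons of a gene together, not of the transcripts present. The order of genes and the ratio of Wdfy1 to Wdfy2 depend on this length. In wild type the order of levels was Wdfy2 (11.5 CPM per kb), Wdfy3 (10.5), Irf3 (10.3), Wdfy1 (6.63 ± 0.643), Ticam1 (3.62), Tlr4 (2.76) and Tlr3 (2.49). The first 3 overlapped their neighbours in this order, as did Ticam1 and Tlr4, while Wdfy1 stood apart on both sides. The order in Ms4a6c KO was Wdfy3 (11.8), Wdfy2 (11.7), Irf3 (10.5), Wdfy1 (7.23 ± 0.209), Ticam1 (3.17), Tlr4 (2.55) and Tlr3 (2.43), with overlap between Wdfy3 and Wdfy2 and between Tlr4 and Tlr3. In Ms4a cluster KO Wdfy1 came first at 17.1 ± 1.70 CPM per kb (SD, n = 3), apart from Wdfy3 (11.3), Wdfy2 (10.8) and Irf3 (10.7), whose values overlapped along this order. Ticam1 (3.46), Tlr4 (2.35) and Tlr3 (2.27) followed, the last 2 overlapping. By level per kb Wdfy1 stood at percentile 72.8 of the tested genes in wild type, 74.6 in Ms4a6c KO and 88.7 in Ms4a cluster KO.

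Wdfy2 and Wdfy3 were more abundant per kb than Wdfy1 in wild-type tissue and passed no adjusted test between genotypes. Wdfy2 (ENSMUSG00000014547.10, chromosome 14, 62837678 to 62961509, plus strand), whose product binds endosomes through a FYVE domain like that of WDFY1, was at 101, 109 and 106 CPM in wild type. It was at 104, 112 and 107 CPM in Ms4a6c KO and at 101, 99.7 and 97.0 CPM in Ms4a cluster KO. The 3 Ms4a cluster KO values lay below all 3 of the Ms4a6c KO, as in 8.09% of all tested genes, and overlapped those of wild type. Against the Ms4a6c KO the log2 difference was -0.12 (SE 0.05, edgeR adjusted p = 0.554), and against wild type -0.09 (SE 0.05, 95% interval -0.21 to 0.04, edgeR adjusted p = 0.971). Wdfy3 (ENSMUSG00000043940.15, chromosome 5, 101832956 to 102069921, minus strand) encodes ALFY, a large scaffold for the autophagy of protein aggregates. It was at 161, 152 and 172 CPM in wild type, 203, 157 and 181 CPM in Ms4a6c KO and 178, 146 and 196 CPM in Ms4a cluster KO, and all genotypes overlapped. Its log2 difference was 0.10 (SE 0.12) between Ms4a cluster KO and wild type and 0.16 (SE 0.12) between Ms4a6c KO and wild type, with edgeR adjusted p of 0.997 and 0.674.

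Wdfy4, the remaining relative, is known for cross-presentation in dendritic cells. It was at 4.27, 4.33 and 3.41 CPM in wild type, 3.24, 4.53 and 5.22 CPM in Ms4a6c KO and 4.81, 3.39 and 3.61 CPM in Ms4a cluster KO. These ranges overlapped, and Wdfy4 passed the test in 0 of the 3 comparisons (edgeR adjusted p of 0.908 to 1). Exons of Wdfy2 overlap the opposite-strand gene Gm26536 by 343 bases, and those of Wdfy3 overlap Gm20548 and Gm42934 by 392 and 162 bases. Exons of Tlr3 overlap the opposite-strand gene Gm45542 by 381 bases, and those of Irf3 overlap Bcl2l12 by 88 bases. The libraries keep strand, but the strand setting of the counting is not given in the sources used here. Reads in those stretches, and in that shared by Wdfy1 and Mrpl44, are therefore uncertain.

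The 2 receptor genes had the lowest mean levels per kb of the 7 genes and showed no difference that passed the test. Among all tested genes they stood near the middle, at percentile 53.0 (Tlr3) and 54.9 (Tlr4) in wild type. Tlr3 (ENSMUSG00000031639.12, chromosome 8, 45395665 to 45411080, minus strand) was at 13.3, 13.4 and 12.2 CPM in wild type, from 187 to 241 counts. It was at 12.5, 12.3 and 13.1 CPM in Ms4a6c KO and at 10.8, 13.95 and 10.8 CPM in Ms4a cluster KO. The highest Ms4a cluster KO value was that of the gland-rich replicate 2, the other 2 mice being below all 6 mice of the other genotypes. The log2 difference from wild type was -0.14 (SE 0.12, edgeR adjusted p = 0.971) in the Ms4a cluster KO and -0.04 (SE 0.11, edgeR adjusted p = 0.942) in the Ms4a6c KO. Without both gland-rich mice, the difference between Ms4a cluster KO and wild type was -0.25 (SE 0.11, edgeR adjusted p = 0.571).

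Tlr4 (ENSMUSG00000039005.13, chromosome 4, 66827584 to 66930284, plus strand) was at 15.2, 16.1 and 14.7 CPM in wild type. It was at 14.3, 14.8 and 13.4 CPM in Ms4a6c KO and at 12.5, 13.5 and 13.2 CPM in Ms4a cluster KO. All 3 Ms4a cluster KO values lay below all 3 wild-type values, as they did in 5.15% of all tested genes, and the Ms4a6c KO overlapped both. The log2 difference between Ms4a cluster KO and wild type was -0.24 (SE 0.09, 95% interval -0.43 to -0.05), with an edgeR adjusted p of 0.968 and an unadjusted p of 0.0194. Between Ms4a6c KO and wild type it was -0.11 (SE 0.08, edgeR adjusted p = 0.680), and without both gland-rich mice the Ms4a cluster KO differed from wild type by -0.26 (SE 0.11, edgeR adjusted p = 0.542).

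Ticam1 and Irf3, the adaptor and the transcription factor of the TRIF branch, overlapped between all genotypes. Ticam1 (ENSMUSG00000047123.8, chromosome 17, 56269319 to 56276786, minus strand) was at 13.6, 8.21 and 10.6 CPM in wild type, 9.47, 10.5 and 8.47 CPM in Ms4a6c KO and 8.52, 13.8 and 8.82 CPM in Ms4a cluster KO. Its highest values, 13.6 and 13.8 CPM, were those of the 2 gland-rich mice, and the other 7 mice lay between 8.21 and 10.6 CPM. The log2 difference from wild type was -0.08 (SE 0.22) in the Ms4a cluster KO and -0.19 (SE 0.22) in the Ms4a6c KO, with edgeR adjusted p of 1 and 0.814. Irf3 (ENSMUSG00000003184.15, chromosome 7, 44997648 to 45002848, plus strand) was at 41.4, 31.6 and 33.2 CPM in wild type, 35.05, 37.5 and 36.2 CPM in Ms4a6c KO and 36.6, 40.0 and 33.5 CPM in Ms4a cluster KO. Its highest values, too, were those of the gland-rich mice, and all genotypes overlapped. The log2 difference from wild type was 0.05 (SE 0.11, 95% interval -0.18 to 0.28) in the Ms4a cluster KO and 0.04 (SE 0.11, 95% interval -0.20 to 0.27) in the Ms4a6c KO, with edgeR adjusted p of 1 and 0.939. The part of gland RNA in the levels of Ticam1 and Irf3 was not tested.

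Counted together, 0 of the 6 genes beside Wdfy1 passed an adjusted p of 0.05 between Ms4a cluster KO and wild type, where 0.0258% of all tested genes passed (edgeR's quasi-likelihood test). At an unadjusted p of 0.05 the count was 1 of 6, Tlr4, against 4.93% of all genes. Between Ms4a6c KO and wild type 0 of 6 passed, against 0.435% of all genes, and between Ms4a cluster KO and Ms4a6c KO 0 of 6, against 0.443%. In both of these comparisons 0 of 6 were under an unadjusted p of 0.05, against 10.5% and 9.38% of all genes. Without both gland-rich mice the unadjusted counts were 2 (Tlr3 and Tlr4) between Ms4a cluster KO and wild type, 1 (Irf3) between Ms4a6c KO and wild type and 2 (Tlr3 and Wdfy2) between the knockouts, against 8.7%, 15.7% and 10.6% of all genes in that fit, and 0 of 6 passed an adjusted p of 0.05. DESeq2 also called 0 of 6 in each comparison. The median log2 difference of the 6 genes was -0.08 between Ms4a cluster KO and wild type and -0.08 between the knockouts, beside 0.01 over all tested genes in both. Over the 6 genes and 3 comparisons the estimates ran from -0.24 to 0.16, and the intervals from -0.68 to 0.60, the widest being those of Ticam1.

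**Figure D3:**
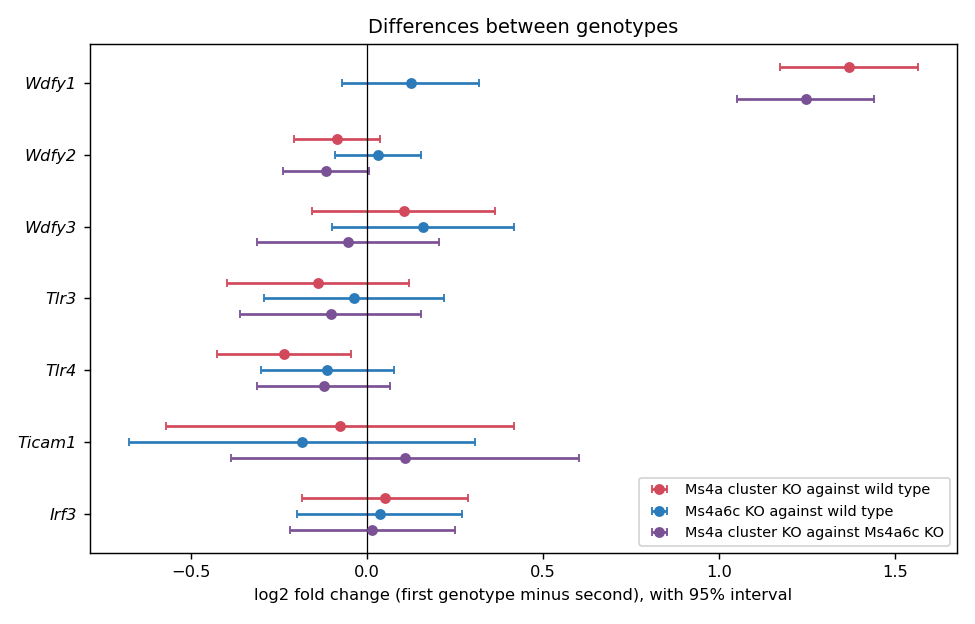
Log2 fold change with its 95% interval (x axis) for each of the 7 genes (y axis) in the 3 comparisons, marked by color. The Wdfy1 estimates for the Ms4a cluster KO, 1.37 and 1.25, lie to the right of every other interval, and 1 other interval does not cross 0, that of Tlr4 between Ms4a cluster KO and wild type (-0.43 to -0.05).

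The wider pathway was read from 11 lists of 126 genes, Wdfy1 left out, of which 121 were tested. The 5 genes below the count minimum were Cxcl2, Il6 and Saa3, inflammatory genes with at most 3 counts in any mouse, and Ifnb1, which encodes interferon beta, and Trim38, both with 0 counts in all 9 mice. Of the 121 genes, 0 passed the adjusted test between Ms4a cluster KO and wild type, and 7 (5.79%) were under an unadjusted p of 0.05, against 4.93% of all tested genes. Of these 7, 1 was higher and 6 were lower, where 2.25% and 2.68% of all genes were. DESeq2 called 0 as well, and in the other comparisons it called no list gene but Lbp and Map3k7. Between Ms4a6c KO and wild type 1 of 121 passed and 14 (11.57%) were under the unadjusted threshold, against 10.5% of all genes, with 7 in each direction, where 5.34% of all genes were higher and 5.13% lower. Between Ms4a cluster KO and Ms4a6c KO 1 passed and 18 (14.88%) were under the unadjusted threshold, against 9.38%. Of these 18, 11 were higher and 7 lower, where 4.68% and 4.7% of all genes were. The median log2 difference of the 121 genes was 0.0036, -0.0024 and -0.030 in these comparisons, beside 0.0072, -0.0016 and 0.0070 over all genes.

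The gene that passed was Lbp in both cases. Lbp (ENSMUSG00000016024.9, chromosome 2, 158306493 to 158332852, plus strand) encodes a secreted protein that carries lipopolysaccharide to the TLR4 receptor complex. It was at 27.7, 34.2 and 29.1 CPM in wild type, 74.0, 107 and 88.7 CPM in Ms4a6c KO and 30.8, 27.8 and 35.2 CPM in Ms4a cluster KO. Every Ms4a6c KO mouse was thus above all 6 other mice, and the other genotypes overlapped. All 3 values lay above wild type in 9.71% of all tested genes, and 0.22% were called higher. Lbp was higher in the Ms4a6c KO than in wild type by 1.56 on the log2 scale (SE 0.14, edgeR adjusted p = 0.000505). In the Ms4a cluster KO it was lower than in the Ms4a6c KO, with a log2 difference of -1.51 (SE 0.14, edgeR adjusted p = 0.000540), where 0.207% of all genes were called lower, and it differed from wild type by 0.05 (SE 0.14, edgeR adjusted p = 1). The sustentacular cell markers were also highest, and the macrophage markers lowest, in the Ms4a6c KO, and their part in the level of Lbp was not tested. These comparisons share mice, and the pattern of Lbp is not that of Wdfy1, which was higher in the other knockout.

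**Figure D4:**
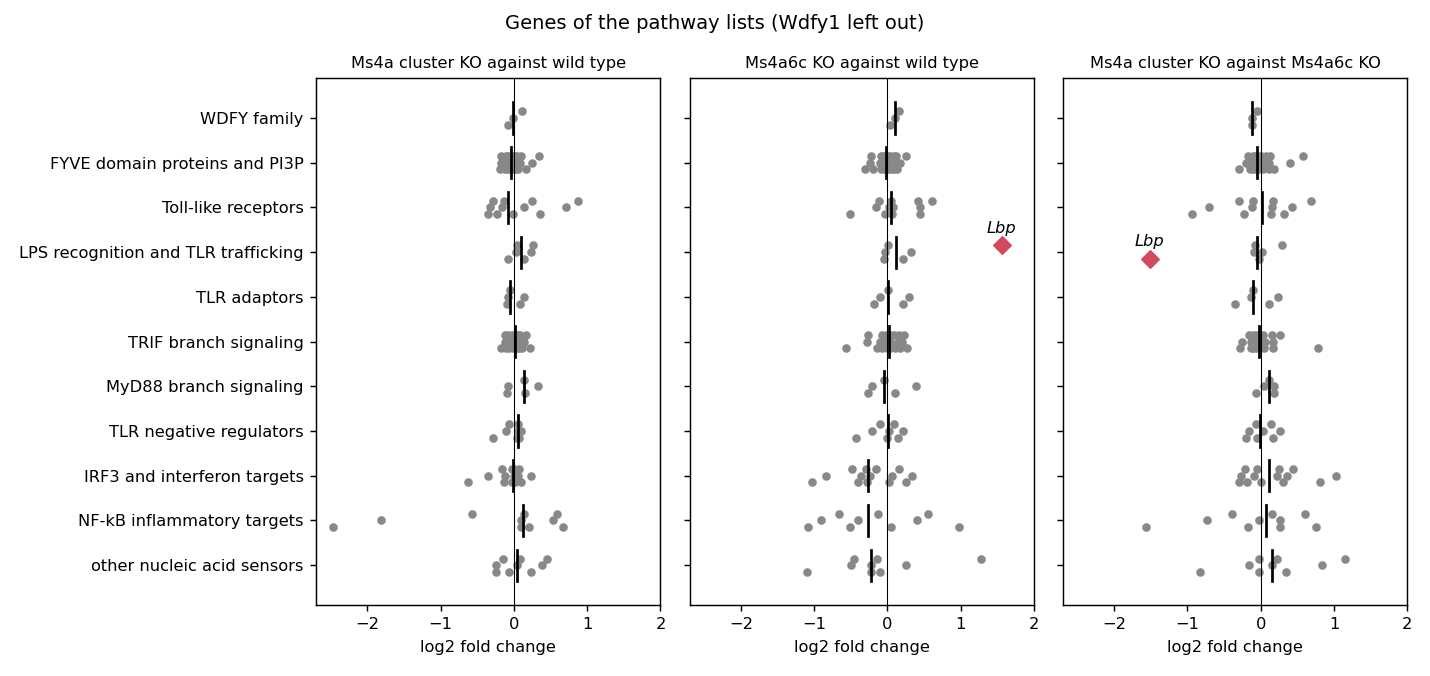
Log2 fold change (x axis) of the tested genes of the 11 pathway lists (rows, Wdfy1 left out) in the 3 comparisons, with 1 gray point per gene, a black bar at each list's median and red diamonds for genes with an adjusted p under 0.05. Lbp is the 1 gene so marked, at 1.56 between Ms4a6c KO and wild type and at -1.51 between Ms4a cluster KO and Ms4a6c KO.

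Among the genes that share the lipid-binding fold of WDFY1 or make and remove its lipid, 0 of 27 passed the test in any comparison, and 1, 0 and 4 (3.7%, 0% and 14.81%) were under an unadjusted p of 0.05 between Ms4a cluster KO and wild type, Ms4a6c KO and wild type, and the knockouts. The shares of all tested genes, against which this and each later unadjusted count in this order is to be read, were 4.93%, 10.5% and 9.38%. The median log2 difference of this list was -0.03 between Ms4a cluster KO and wild type. Hgs, which sorts ubiquitylated receptors on endosomes, was the most abundant per kb and was at 79.1 ± 3.61 CPM in wild type and 81.1 ± 10.9 CPM in Ms4a cluster KO (SD, n = 3). Rufy1, an early endosome protein, was at 40.6 ± 5.17 and 39.7 ± 2.75 CPM in the same groups. Fgd4, an activator of the GTPase CDC42, had the smallest p of the list, with a log2 difference of -0.17 (SE 0.07, edgeR adjusted p = 0.968) between Ms4a cluster KO and wild type.

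Of the 12 Toll-like receptor genes, 0 passed the test in any comparison (2, 1 and 0 at the unadjusted threshold, in the same order), and Tlr4 and Tlr3 were the most abundant of them per kb. The 2 between Ms4a cluster KO and wild type were Tlr4, lower, and Tlr7, higher. For Tlr7, named after its values were seen, the log2 difference was 0.87 (SE 0.37, edgeR adjusted p = 0.968). Tlr5, the flagellin receptor gene, was at 4.62, 5.88 and 5.01 CPM in wild type and 6.85, 6.27 and 7.96 CPM in Ms4a6c KO, a log2 difference of 0.44 (SE 0.19, edgeR adjusted p = 0.456). Besides Lbp, 5 genes for lipopolysaccharide recognition and receptor trafficking were tested and did not pass (0, 1 and 0 unadjusted). They include the chaperone genes Hsp90b1, at 730 ± 12.0 CPM in wild type and 692 ± 62.9 CPM in Ms4a cluster KO, and Cnpy3, at 30.7 ± 2.35 and 31.3 ± 1.23 CPM (SD, n = 3). None of the 5 adaptor genes passed in edgeR's test or in DESeq2, and 0 were under an unadjusted p of 0.05 in any comparison. Myd88, the adaptor of most Toll-like receptors, was at 21.2, 17.9 and 20.2 CPM in wild type and 17.6, 18.9 and 19.0 CPM in Ms4a cluster KO.

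Genes that carry the signal below TRIF numbered 22, and 0 passed the adjusted test. At the unadjusted threshold there were 1, 3 and 6 (4.55%, 13.64% and 27.27%), against 4.93%, 10.5% and 9.38% of all genes, and the 6 between the knockouts were 3 higher and 3 lower. Map3k7, which encodes the kinase TAK1, came nearest. It was at 69.0, 69.8 and 64.8 CPM in wild type, 54.3, 56.6 and 56.3 CPM in Ms4a6c KO and 62.7, 58.9 and 65.7 CPM in Ms4a cluster KO. All 3 Ms4a6c KO mice lay below all 3 wild-type mice, as in 8.55% of tested genes, with a log2 difference of -0.28 (SE 0.06, edgeR adjusted p = 0.0926); DESeq2 called this gene (adjusted p = 0.0106). Traf3, an E3 ligase that links TRIF to the IRF3 kinases, differed between Ms4a cluster KO and Ms4a6c KO by -0.25 (SE 0.06, edgeR adjusted p = 0.218). Tab2, a partner of TAK1, differed between Ms4a cluster KO and wild type by -0.12 (SE 0.05, edgeR adjusted p = 0.968). The NF-kB genes Chuk and Rela, among the most abundant of the list per kb, differed between Ms4a cluster KO and wild type by -0.04 (SE 0.06) and 0.03 (SE 0.08).

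In the MyD88 branch 0 of 5 genes passed (0, 1 and 0 unadjusted). Irak1, a kinase of this branch, was at 99.4, 59.97 and 64.3 CPM in wild type and 62.1, 83.2 and 65.2 CPM in Ms4a cluster KO, with the highest value of each group in its gland-rich mouse. Irak2 was at 14.4 ± 0.696 CPM in wild type and 15.9 ± 2.31 CPM in Ms4a cluster KO (SD, n = 3). Irf5, a transcription factor gene of this branch, differed between Ms4a6c KO and wild type by 0.39 (SE 0.16, edgeR adjusted p = 0.442). Of 8 tested negative regulators 0 passed (0, 0 and 1 unadjusted). Tollip, which restrains receptor signaling, was at 307 ± 4.03 CPM in wild type, 326 ± 16.4 CPM in Ms4a6c KO and 284 ± 26.4 CPM in Ms4a cluster KO. Nfkbia, the NF-kB inhibitor gene, reached 61.9 CPM in the gland-rich Ms4a cluster KO mouse and lay between 31.1 and 45.9 CPM in the other 8 mice.

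Target genes lie at the end of the pathway. No exposure to a ligand of these receptors is described for these mice, and pathway activity was not measured. Of 14 tested IRF3 and interferon targets, 0 passed in any comparison. At the unadjusted threshold there were 1, 4 and 4 (7.14%, 28.57% and 28.57%), against 4.93%, 10.5% and 9.38% of all genes, and the 4 between Ms4a6c KO and wild type were all lower, where 5.13% of all genes were. Their median log2 difference was -0.01 between Ms4a cluster KO and wild type and -0.26 between Ms4a6c KO and wild type, beside 0.0072 and -0.0016 over all genes. The macrophage markers were also lowest in the Ms4a6c KO, and their part in the levels of these targets was not tested. Ifit1, an interferon-induced RNA-binding protein gene and the most abundant of the list per kb, was at 57.6, 48.8 and 54.6 CPM in wild type. It was at 46.5, 43.4 and 41.0 CPM in Ms4a6c KO and at 46.3, 44.1 and 35.8 CPM in Ms4a cluster KO, so that all values of each knockout lay below wild type, as in 8.55% of all tested genes for the Ms4a6c KO and 5.15% for the Ms4a cluster KO. The log2 difference was -0.35 (SE 0.10, edgeR adjusted p = 0.968) in the Ms4a cluster KO and -0.30 (SE 0.10, edgeR adjusted p = 0.325) in the Ms4a6c KO, against the same 3 wild-type mice. Ifit2, of the same family, was at 22.5 ± 0.854 CPM in wild type, 25.1 ± 1.49 CPM in Ms4a6c KO and 20.5 ± 1.3 CPM in Ms4a cluster KO (SD, n = 3). Ifi44, another interferon-induced gene, differed between Ms4a6c KO and wild type by -0.84 (SE 0.27, edgeR adjusted p = 0.281).

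Of 10 tested NF-kB inflammatory targets 0 passed (1, 0 and 0 unadjusted). Lcn2, a siderophore-binding defense protein gene, was at 14.3, 17.3 and 12.2 CPM in wild type and 32.0, 15.3 and 15.6 CPM in Ms4a cluster KO, the high value coming from 1 mouse. Icam1, an adhesion molecule gene, was at 4.47 ± 0.306 CPM in wild type and 4.93 ± 0.689 CPM in Ms4a cluster KO. The chemokine gene Ccl4 was at 0.111 to 0.213 CPM in wild type and at 0, 0 and 0.0501 CPM in Ms4a cluster KO, near or under the limit that a count of 3 sets, so no fold is given. Of 9 other nucleic acid sensor genes 0 passed (1, 3 and 2 unadjusted). Ddx58, which encodes the RNA sensor RIG-I, was at 29.4 ± 0.379 CPM in wild type, 26.8 ± 2.99 CPM in Ms4a6c KO and 31.3 ± 3.58 CPM in Ms4a cluster KO. Mavs, the adaptor of RIG-I, was at 24.3 ± 2.38, 28.8 ± 3.57 and 28.5 ± 1.43 CPM in the same order.

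The 3 sensor genes under the unadjusted threshold between Ms4a6c KO and wild type were Mavs and Cgas, which encodes the DNA sensor cGAS, both higher, and Zbp1, lower. For Cgas, named after its values were seen, the log2 difference was 1.28 (SE 0.42, edgeR adjusted p = 0.292). Dhx58, which encodes the RIG-I relative LGP2, was at 2.39 ± 0.394 CPM in wild type, 1.74 ± 0.181 CPM in Ms4a6c KO and 3.10 ± 0.413 CPM in Ms4a cluster KO, with a log2 difference of 0.83 between the knockouts (SE 0.21, edgeR adjusted p = 0.218). Zbp1, a sensor gene for nucleic acids in the Z form, was at 1.40 ± 0.444, 0.636 ± 0.171 and 1.45 ± 0.213 CPM in the same order, with a log2 difference of -1.10 between Ms4a6c KO and wild type (SE 0.35, edgeR adjusted p = 0.277). Eif2ak2, which encodes the kinase PKR, differed between Ms4a cluster KO and wild type by -0.25 (SE 0.11, edgeR adjusted p = 0.968).

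Genes next to Wdfy1 on chromosome 1 were examined because they share its stretch of chromosome. The 10 tested genes on each side span 2.84 Mb with Wdfy1. Of these 20 genes 0 passed the test between Ms4a cluster KO and wild type in edgeR, against 0.0258% of all genes, and DESeq2 called 0. At an unadjusted p of 0.05 there were 2, Cul3 (log2 difference -0.16, SE 0.05) and Nyap2 (-0.35, SE 0.11), against 4.93% of all tested genes, both named after their values were seen. The estimates of 8 neighbours were above 0 and of 12 below, with a median of -0.06 beside 0.01 over all genes. Between Ms4a6c KO and wild type 0 passed and 2 were under the unadjusted threshold, Ap1s3 (0.29, SE 0.07) among them, against 10.5% of all genes. Between the knockouts 0 passed and 2 were under it, Scg2 (0.81, SE 0.26) among them, against 9.38%.

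Mrpl44, a mitochondrial ribosomal protein gene whose exons overlap those of Wdfy1 on the opposite strand, was at 27.4, 29.0 and 27.6 CPM in wild type and 32.5, 27.8 and 29.8 CPM in Ms4a cluster KO. Its log2 difference was 0.10 (SE 0.08, edgeR adjusted p = 0.971), and the groups overlapped. On the other side, Ap1s3, a clathrin adaptor gene, differed by 0.12 (SE 0.07, edgeR adjusted p = 0.971). Scg2, which encodes a secretory granule protein, differed by 0.41 (SE 0.26, edgeR adjusted p = 0.971), with 33.1 CPM in the gland-rich Ms4a cluster KO mouse and 18.3 and 18.7 CPM in the other 2. Gm10555, a GENCODE gene of the class TEC inside the span of Wdfy1 on the opposite strand, was at 0.698 to 2.04 CPM in all 9 mice and differed by -0.18 (SE 0.36, edgeR adjusted p = 1).

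**Figure D5:**
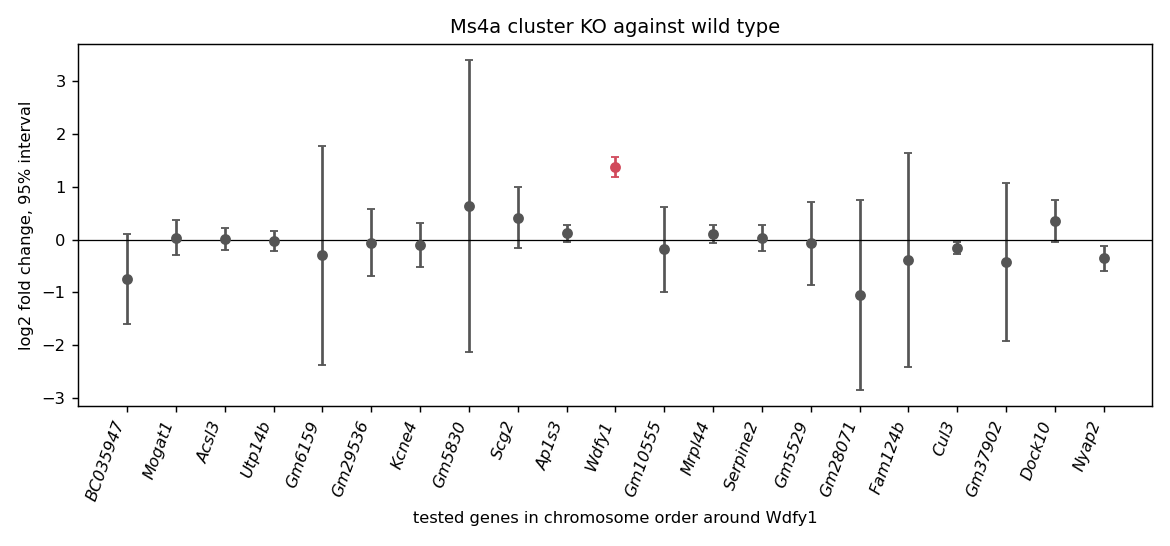
Log2 fold change between Ms4a cluster KO and wild type with its 95% interval (y axis) for Wdfy1, in red, and the 10 tested genes on each side of it in chromosome order (x axis, gene ranks, not distance). Wdfy1 stands at 1.37, the other 20 genes have estimates from -1.04 to 0.62, and the widest intervals belong to genes under 1 CPM.

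Genes whose levels were most like those of Wdfy1 across the 9 mice were then sought. Likeness was the root mean square difference of centered log2 CPM over the 9 mice among 16537 genes with a mean of at least 1 CPM, on which a gene with the same level in every mouse would be 0.623 from Wdfy1. The nearest gene was Gm9027 at 0.376, with mean levels of 0.804 CPM in wild type, 1.07 CPM in Ms4a6c KO and 1.63 CPM in Ms4a cluster KO. The following 4 were Cntnap4 (0.402), Cdk5rap1 (0.403), Fhl3 (0.404) and Angpt4 (0.405). Cdk5rap1, which encodes a tRNA-modifying enzyme, was at 8.32, 9.32 and 8.65 CPM in wild type and 16.9, 9.77 and 11.8 CPM in Ms4a cluster KO. The log2 differences of these 5 genes between Ms4a cluster KO and wild type were 0.51 to 1.0, below that of Wdfy1, and carry no test because the genes were picked by their values.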

How the data were processed

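RNA of the main olfactory epithelium of 9 mice was sequenced from directional poly-A libraries. The authors aligned paired-end reads with STAR 2.6.1, quantified them with RSEM 1.3.1 in DolphinNext on GENCODE M25 (mm10), and deposited unnormalized expected counts per gene. The strand setting and any filter are not given in the sources used here.

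Groups and replicate numbers came from the labels. Expected counts were rounded, filtered to genes whose sum over the mice reached 10, scaled by TMM and tested in edgeR 4.0.16 (R 4.3.3; glmQLFit and glmQLFTest, 1 model of all 9 mice, Benjamini-Hochberg over 23225 genes, adjusted p under 0.05). SE is the log2 difference divided by the square root of F. The procedure was tested on simulated counts. Depth sets the counting error, and limits cover this error only, since reads had no molecular identifiers. With 3 mice of each genotype, p-values set a difference against the spread between these mice, estimated over all 3 genotypes and moderated across genes.

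Exon lengths, coordinates, overlaps and sequences came from GENCODE M21 (GRCm38), to which 99.6% of genes were matched by transcript. Coding sequences were compared by global alignment and by windows without gaps. Figures used matplotlib 3.10.9 in Python 3.11.

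The members and lists were chosen with earlier results of these data known. Named genes were the 7 members, Wdfy4, list genes that passed the test, in each list the 2 most abundant per kb and in each comparison the smallest unadjusted p under 0.05, the 2 tested genes on either side of Wdfy1, and the 5 most like it. Not every gene under this rule is given in every comparison. Alternatives were DESeq2 1.42.0, its size factors in edgeR, no filter, filterByExpr, only the 2 genotypes compared, leaving out each mouse, a block for the replicate number, 25 neighbors on each side, an adjusted p under 0.1, and, added after seeing the data, leaving out both gland-rich mice.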

Additional observations from a re-analysis of the deposited data

Results flagged for a closer look

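The log2 fold change of Lbp against wild type was not the same in the Ms4a cluster KO as in the Ms4a6c KO. The difference of the log2 fold changes was -1.51 (edgeR adjusted p = 0.000540), a contrast in which the shared wild-type mice cancel. Deletion and line cannot be told apart in it.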

How the results depend on the processing

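Over 16 alternative fits, 0 of the 6 genes beside Wdfy1 was called in any comparison (lowest adjusted p 0.279), and Lbp was called in 16 of 16 in each of its comparisons, with adjusted p up to 0.00571 and 0.00606. The difference of Wdfy1 between Ms4a cluster KO and wild type ran from 1.3 to 1.45 when each mouse was left out in turn and from 1.36 to 1.39 otherwise. In 288 values of the other 6 genes 269 kept their sign. The 19 that did not were uncalled, and the cause was not tested. Without both gland-rich mice these were Ticam1 (0.0132) between Ms4a6c KO and wild type, and Wdfy3 (0.0496), Ticam1 (-0.13) and Irf3 (-0.0502) between the knockouts. Between Ms4a cluster KO and wild type Tlr3 (-0.14) was -0.267 without Ms4a cluster KO replicate 2 and -0.0792 and -0.0799 without replicates 1 and 3, and Wdfy3 (0.10) was 0.00404 without Ms4a cluster KO replicate 3, 0.210 without its replicate 2 and 0.0597 without wild type replicate 2, all uncalled. When 1 mouse was left out, Ticam1 ran from -0.32 to 0.12 and Irf3 from -0.0270 to 0.175 between Ms4a cluster KO and wild type. Between Ms4a6c KO and wild type Wdfy2 ran from -0.00668 to 0.0557, Ticam1 from -0.352 to 0.0114 and Irf3 from -0.0415 to 0.162, and between the knockouts Wdfy3 ran from -0.154 to 0.0520, Ticam1 from -0.13 to 0.23 and Irf3 from -0.0484 to 0.0764.

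The background moved more. All genes called between Ms4a cluster KO and wild type were 6, and 18 with DESeq2. Leaving out 1 mouse gave 3 to 7, with 3 without Ms4a6c KO replicate 3, wild type replicate 2 or wild type replicate 3. Between Ms4a6c KO and wild type they were 101, and 182 without a filter, 345 with DESeq2 and 350 without both gland-rich mice. Leaving out 1 mouse gave 59 to 159: 59 and 60 without wild type replicates 2 and 3, 64 without Ms4a6c KO replicate 3 and 159 without Ms4a cluster KO replicate 2. Between the knockouts they were 103, and 155 without a filter and 271 with DESeq2. Leaving out 1 mouse gave 66 to 121, with 66 and 67 without Ms4a6c KO replicates 2 and 3. Pathway genes called between Ms4a6c KO and wild type were 1, and 2 with DESeq2, without both gland-rich mice, or at an adjusted p under 0.1, the second being Map3k7, and 1 to 2 when 1 mouse was left out (2 without Ms4a cluster KO replicate 2). The causes were not tested.

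With the replicate number as a block, all genes called between Ms4a cluster KO and wild type were 2, and 71 and 75 in the comparisons of the Ms4a6c KO with wild type and with the Ms4a cluster KO. Whether the numbers pair the mice is not given in the sources used here, and the correlations do not decide it. Same-numbered mice correlated in their deviations from the group means at -0.54, -0.36 and -0.20 between Ms4a cluster KO and wild type. The values were -0.06, -0.04 and 0.01 between Ms4a6c KO and wild type, and -0.11, 0.02 and 0.11 between the knockouts. Deviations from a group mean cancel out within the group, which ties these values to each other. The gland-rich mice, Ms4a cluster KO replicate 2 and wild type replicate 1, correlated at 0.47 but carry different numbers. Pairing was therefore not tested by these values. Ticam1, Tlr3 and Tlr4 had 133 to 350 counts a mouse and Wdfy4 34 to 96, and low counts add counting error. The pooled SD of log2 levels was 0.317 for Ticam1 and 0.063 for Tlr4, and the cause of this gap was not tested.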
